A study of Mus musculus with 7 samples.

Results

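The genes described here carry signals that restrain or permit attack on a cell by macrophages and T lymphocytes. Cd47, Sirpa, Cd274, Pdcd1lg2, Pvr, Nectin2, Cd80, Cd86, Cd200 and Cd200r1 were taken by symbol, and all 10 were found among the 56941 genes of the 4 count matrices. Their transcripts were followed in nuclei of endpoint lung tumors from 4 male mice, by animal and by class of nuclei.

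Small cell lung cancer (SCLC) was initiated by intratracheal adenovirus carrying Cre under the CMV promoter, which is active in any infected cell. Mice RP1 and RP2 carried Rb1 fl/fl and Trp53 fl/fl (RP). Mice RPC1 and RPC2 carried the same floxed genes and were labelled Casp8-/- (RPC), which the series design describes as a conditional deletion. Nuclei were barcoded by combinatorial indexing in 7 libraries that each pooled the 4 animals, and the animal was the replicate (n = 2 per genotype).

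CD47 on a target cell engages SIRPα on macrophages and restrains engulfment, and CD200 engages CD200R1 on myeloid and some lymphoid cells with a similar inhibitory effect. PD-L1 (Cd274) and PD-L2 (Pdcd1lg2) engage PD-1 on activated T cells. CD155 (Pvr) and CD112 (Nectin2) bind inhibitory receptors such as TIGIT or the activating receptor CD226, whereas CD80 and CD86 bind the costimulatory receptor CD28 or its inhibitory counterpart CTLA-4. Neuroendocrine SCLC is known for a sparse immune infiltrate and low antigen presentation.

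Of 38254 nuclei kept, 31699 were tumor-like, 444 macrophage-like, 171 B cell-like and 103 T or NK cell-like. Another 2414 shallow nuclei, 6.31% of those kept, stayed unnamed and enter none of the named classes. Their leading genes included Lyz2, Apoe and Sftpc, so some could be macrophage or alveolar nuclei, which was not tested. Classes were named from marker genes after clustering without the 10 genes and their pathway. An animal contributed 82 to 173 macrophage-like nuclei with 180665 to 377108 transcripts. Of these, 19 of 82 in RP1, 102 of 173 in RP2, 54 of 95 in RPC1 and 38 of 94 in RPC2 were alveolar macrophage-like. The mixture thus differed between animals, and its part in the macrophage-like levels was not tested. An animal contributed 54 to 98 lymphocyte-like nuclei (B cell-like and T or NK cell-like together) with 66683 to 112924 transcripts. Tumor-like sums held 27269016 to 52806036 transcripts, so that the immune classes were measured less precisely. Intervals and upper limits cover counting error only. Levels are CPM (counts scaled to 1e6 transcripts of the class in an animal), listed throughout in the order RP1, RP2, RPC1, RPC2, and are compared between nuclei for 1 gene and not between genes. Casp8 was at 56.9, 60.4, 91.5 and 67.1 CPM in tumor-like nuclei. These counts cover the whole gene and do not separate deleted exons, so they do not check the genotype.

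Neuroendocrine transcripts were counted in the immune classes too. The 15 neuroendocrine markers summed to 7.43 to 15% of their tumor-like level in macrophage-like nuclei and to 14.9 to 26.1% in lymphocyte-like nuclei. Conversely, the 16 macrophage markers summed to 0.750 to 1.1% of their macrophage-like level in tumor-like nuclei. A further 2337 nuclei with markers of another class and neuroendocrine markers at 77.0 to 81.6% of the tumor-like level were kept out of the named classes as mixed. They included 244 nuclei with macrophage or monocyte markers. Another 330 had Bank1, Pax5 and Ptprc among their leading genes, and 207 of these 330 were from RP1. No dendritic cell-like class was named, and 2 to 4 of 7 dendritic cell markers were at 0 in the macrophage-like sum of an animal.

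**Figure D1:**
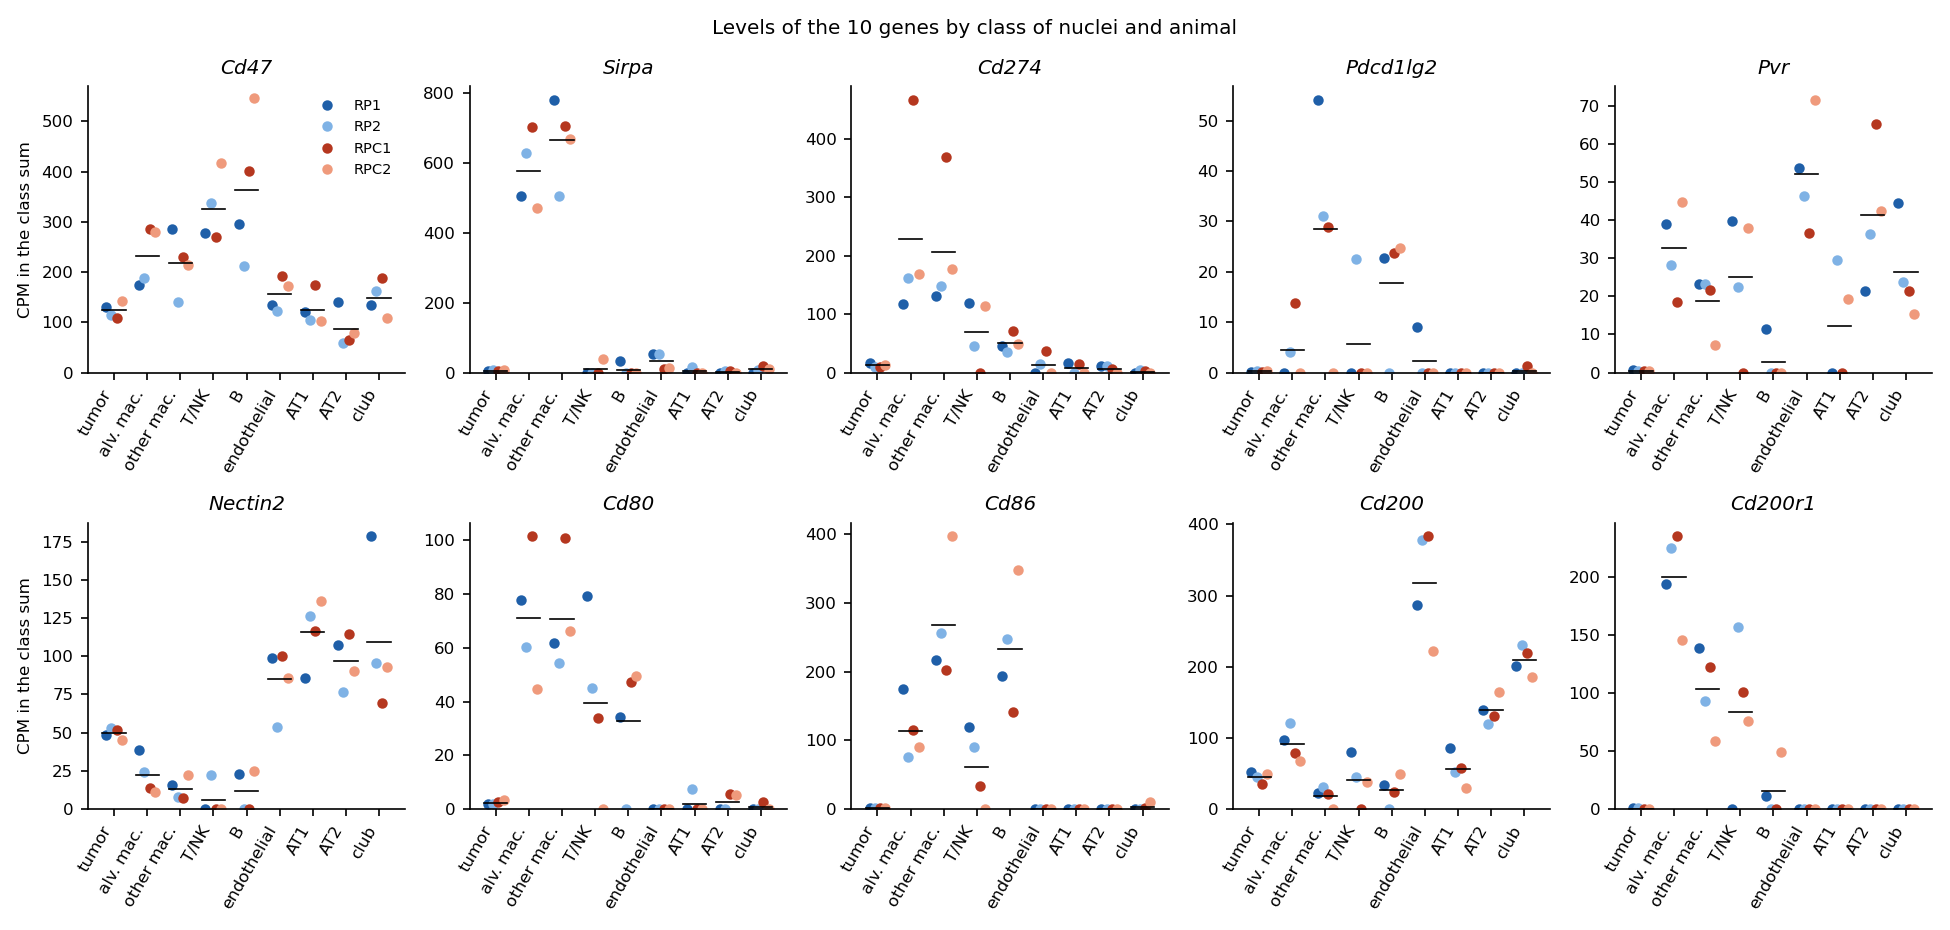
Level of each gene (y axis, CPM, linear, a separate scale per gene) in the summed nuclei of 9 classes (x axis). Points are animals and black lines are means over 4 animals; alv. mac., alveolar macrophage-like; other mac., other macrophage or monocyte-like; AT1 and AT2, alveolar type 1-like and type 2-like. Sirpa, Cd274, Cd80, Cd86 and Cd200r1 lie near 0 in tumor-like nuclei and high in macrophage-like nuclei, whereas Nectin2 and Cd200 have their highest means in epithelial or endothelial classes.

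Cd47, the broadly expressed ligand that restrains engulfment, was detected in every class (chromosome 16, positions 49620896 to 49735373, plus strand; all positions are GRCm39). In tumor-like nuclei it was at 129.8, 115, 108 and 143 CPM. In macrophage-like nuclei of the same animals it was at 255, 172, 265 and 240.0 CPM. In lymphocyte-like nuclei it was at 292, 289, 348 and 495 CPM, so that the tumor-like level was the lowest of the 3 in every animal. Both differences passed the test, with a log2 fold change of 0.73 ± 0.19 (SE, n = 4; adjusted p = 0.000362, edgeR quasi-likelihood with the animal as a block) for macrophage-like and 1.005 ± 0.23 (adjusted p = 6.58e-05, edgeR) for lymphocyte-like against tumor-like nuclei. Macrophage-like and lymphocyte-like nuclei differed by -0.42 ± 0.23 on the log2 scale, which did not pass (adjusted p = 0.144, edgeR). Over 9 classes the mean ranged from 364 ± 144 CPM (SD, n = 4) in B cell-like to 85.7 ± 37.0 CPM in alveolar type 2-like nuclei, and neighboring classes overlapped at every step of this order.

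Cd47 ranged from 102 to 149.7 CPM among the 11 tumor-like clusters, each taken in the animal that made up most of it. After each nucleus was thinned to 1000 transcripts, a Cd47 transcript was found in 11.2, 10.6, 10.2 and 12.6% of tumor-like nuclei. Here and below, nuclei with fewer transcripts than the thinning depth were left out of a share, whereas shares without thinning cover all nuclei. At 1000 transcripts this left out 740, 717, 118 and 310 tumor-like and 16, 32, 3 and 12 macrophage-like nuclei. Without thinning the shares were 30.4, 28.7, 36.0 and 39.2%, and RPC1, lowest after thinning, was then above both RP animals.

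Sirpa, the macrophage receptor for CD47 (chromosome 2, positions 129434039 to 129474148, plus strand), was also higher in macrophage-like than in tumor-like nuclei, by far more than Cd47, and was scarce in lymphocyte-like nuclei. It was at 703, 586, 704 and 591 CPM in macrophage-like nuclei. In tumor-like nuclei it was at 4.40, 6.16, 4.11 and 5.92 CPM. In lymphocyte-like nuclei 3, 0, 0 and 1 transcripts were counted. The macrophage-like level exceeded the tumor-like level by 6.81 ± 0.22 on the log2 scale (adjusted p = 1.93e-210, edgeR) and the lymphocyte-like level by 5.83 ± 0.42 (adjusted p = 9.46e-16, edgeR). Alveolar macrophage-like nuclei (19 to 102 per animal), at 471 to 702 CPM, and the other macrophage or monocyte-like nuclei, at 506 to 781 CPM, overlapped. Endothelial-like nuclei followed at 32.8 ± 24.4 CPM (SD, n = 4) and overlapped neither.

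The tumor-like Sirpa level was 0.584 to 1.05% of the macrophage-like level of the same animal, beside 0.750 to 1.1% for the summed macrophage markers. Among tumor-like clusters it ranged from 1.61 to 17.7 CPM with a median of 3.97 CPM. The highest was a cluster led by Grik2, Lrrtm4, Erbb4 and Nrxn3. The related genes Sirpb1a, Sirpb1b and Sirpb1c were at means of 67.6, 116 and 183 CPM in macrophage-like and 0.175, 0.556 and 0.336 CPM in tumor-like nuclei. How reads shared within this family were assigned is not given in the sources used here, so its members are uncertain to that extent.

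**Figure D2:**
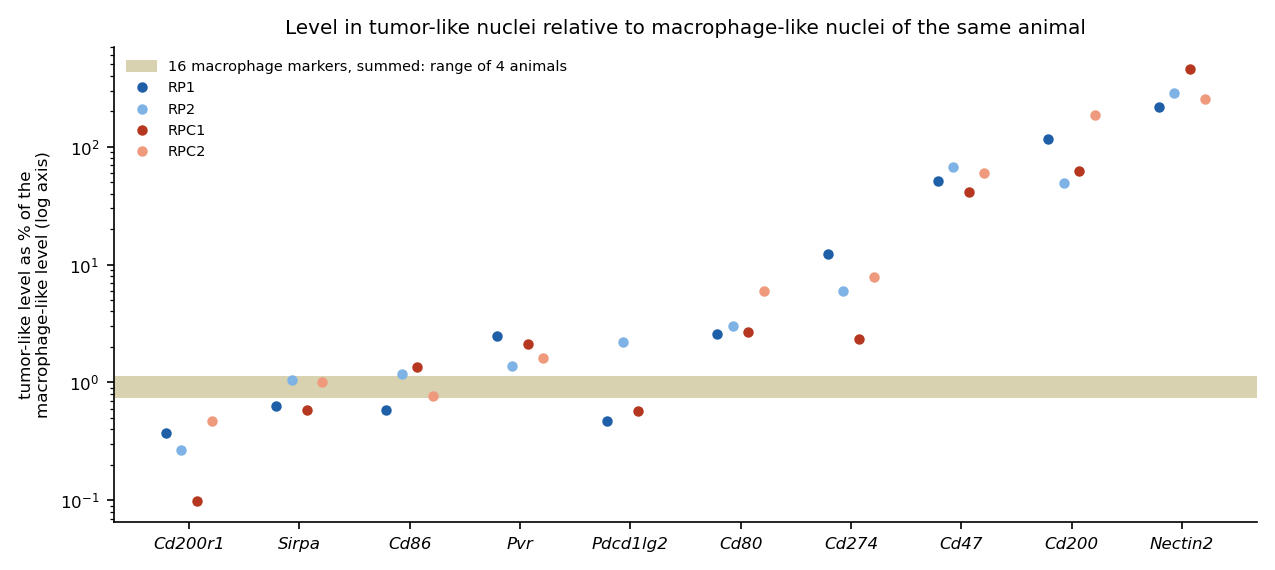
Level of each gene in tumor-like nuclei as a percentage of its level in macrophage-like nuclei of the same animal (y axis, log scale), one point per animal; the band is the range over 4 animals of the same percentage for 16 summed macrophage markers, 0.750 to 1.1%. Cd200r1 lies below the band, and Pvr, Cd80, Cd274, Cd47, Cd200 and Nectin2 lie above it in every animal; RPC2 has no point for Pdcd1lg2, which was at 0 in its macrophage-like nuclei.

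Cd274, which encodes PD-L1 (chromosome 19, positions 29344529 to 29365495, plus strand), was highest in macrophage-like nuclei, and there RPC1 stood above the other 3 animals. The levels were 127, 156, 428 and 173 CPM, from 23, 59, 152 and 39 transcripts. The exact 95% Poisson interval of RPC1, 363 to 502 CPM, lay above those of the others, the highest of which ended at 237 CPM in RPC2. RPC1 was also highest in alveolar macrophage-like nuclei (117, 161, 466.5 and 168 CPM) and in the other macrophage or monocyte-like nuclei (132, 148, 368 and 177 CPM).

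In RPC1 the 5 nuclei richest in Cd274 held 45.4% of the macrophage-like Cd274 transcripts, and 1 nucleus held 22, whereas the 5 richest held 39.1, 32.2 and 35.9% in RP1, RP2 and RPC2. A Cd274 transcript was found in 43 of its 95 macrophage-like nuclei, and 10 of these held 5 or more, against 0, 2 and 0 in RP1, RP2 and RPC2. Without these 5 nuclei of each animal the levels were 85.8, 112, 268 and 119 CPM, and RPC1 was still highest. Its 7 libraries ranged from 188 to 692 CPM. RPC1 macrophage-like nuclei were also the deepest, with a median of 3158 transcripts. With each nucleus thinned to 1000 transcripts, the shares with a Cd274 transcript were 7.58, 12.8, 21.7 and 11%, and the exact 95% interval of RPC1, 13.8 to 31.6%, overlapped those of the others. Without thinning they were 23.2, 20.8, 45.3 and 25.5%.

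**Figure D3:**
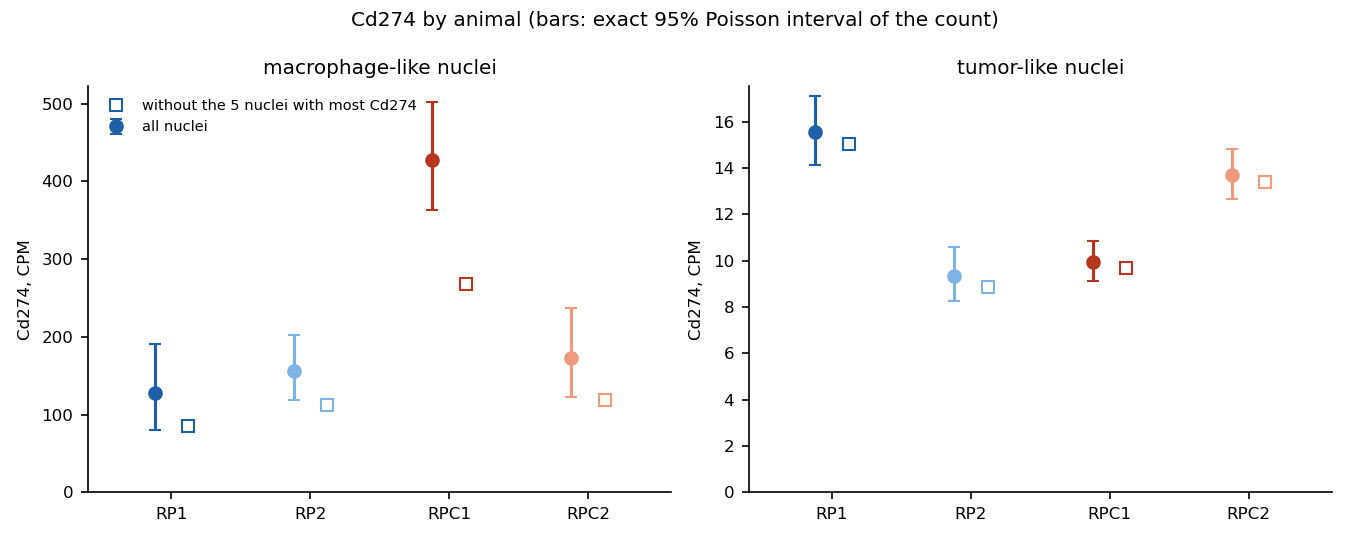
Cd274 level by animal (y axes, CPM, linear from 0) in macrophage-like nuclei on the left and tumor-like nuclei on the right. Filled circles are all nuclei with the exact 95% Poisson interval of the count, and open squares leave out the 5 nuclei with most Cd274 transcripts; RPC1, at 428 CPM, lies above the other animals on the left and at 9.96 CPM among them on the right.

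Tumor-like nuclei held Cd274 at 15.5, 9.35, 9.96 and 13.7 CPM, with RP and RPC animals overlapping. After thinning, a transcript was found in 1.44, 0.802, 0.922 and 1.46% of tumor-like nuclei. The level was 2.33 to 12.2% of the macrophage-like level, above the 0.750 to 1.1% of the macrophage markers in every animal. Tumor-like clusters ranged from 8.07 to 22.5 CPM, the highest being led by Negr1, Eya1, Pdzrn3 and Ybx2. Lymphocyte-like nuclei were at 62.0, 41.3, 41.7 and 75.0 CPM, from 7, 3, 3 and 5 transcripts. Macrophage-like nuclei exceeded tumor-like nuclei by 3.97 ± 0.22 on the log2 scale (adjusted p = 3.52e-70, edgeR) and lymphocyte-like nuclei by 2.04 ± 0.36 (adjusted p = 7.49e-06, edgeR). Lymphocyte-like nuclei exceeded tumor-like nuclei by 1.68 ± 0.52 (adjusted p = 0.00683, edgeR), a call lost without RP1 (adjusted p = 0.0632, edgeR) or RPC2 (adjusted p = 0.0693, edgeR). Cd274 overlaps Plgrkt on the other strand by 296 bases, and Plgrkt was at 21.7 to 33.7 CPM in tumor-like nuclei. Whether strand was used in counting is not given in the sources used here, and the part of such reads was not tested.

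The 250 bases before the start of the canonical transcript are shown for Cd274 and Cd86, both called higher in macrophage-like nuclei, on the strand of the gene (GRCm39). Capitals mark matches on either strand to 6 motifs, namely GAGGAA (the core bound by PU.1, an ETS factor of macrophages), TGANTCA (AP-1), the interferon response element, TTCNNNGAA (STAT), the NF-kappaB site and CAGCTG (an E-box).
Cd274, chr19:29344279-29344528, plus strand: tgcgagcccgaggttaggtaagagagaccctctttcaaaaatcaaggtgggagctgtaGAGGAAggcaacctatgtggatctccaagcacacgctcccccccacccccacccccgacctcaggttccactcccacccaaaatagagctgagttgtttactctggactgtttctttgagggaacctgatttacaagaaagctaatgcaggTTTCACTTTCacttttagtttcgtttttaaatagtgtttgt
Cd86, chr16:36486440-36486689, minus strand: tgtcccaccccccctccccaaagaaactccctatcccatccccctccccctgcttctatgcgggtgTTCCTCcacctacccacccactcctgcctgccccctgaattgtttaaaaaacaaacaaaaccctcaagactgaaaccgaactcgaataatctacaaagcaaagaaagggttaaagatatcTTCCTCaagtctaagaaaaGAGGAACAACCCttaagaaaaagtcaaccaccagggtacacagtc
The interferon response element was found in the Cd274 window, in none of the other 9, and in 3.32% of 21757 protein-coding promoters of that length. GAGGAA was found in 5 of the 10 windows (Cd47, Sirpa, Cd274, Pdcd1lg2 and Cd86) and in 22.9% of all promoters. In Cd86 a GAGGAA overlaps an NF-kappaB match. These are matches of letters and say nothing of binding.

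Pdcd1lg2, which encodes the second PD-1 ligand PD-L2 and lies beside Cd274 (chromosome 19, positions 29388319 to 29448882, plus strand), was near the limit of detection. In macrophage-like nuclei 7, 5, 7 and 0 transcripts were counted, that is 38.7, 13.3, 19.7 and 0 CPM. RPC1, the animal with the highest macrophage-like Cd274, was within the range of the others for Pdcd1lg2 in these nuclei. In tumor-like nuclei 5, 8, 6 and 14 transcripts were counted, at 0.114 to 0.310 CPM. Macrophage-like nuclei exceeded tumor-like nuclei by 6.02 ± 0.72 on the log2 scale (adjusted p = 4.65e-16, edgeR). Of the macrophage-like transcripts, 15 were in other macrophage or monocyte-like and 4 in alveolar macrophage-like nuclei. The noncoding gene A930007I19Rik overlaps 6738 bases of Pdcd1lg2 on the other strand and was at 44.3 to 196 CPM in macrophage-like nuclei.

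Pvr and Nectin2 encode ligands that share receptors but were distributed differently. Pvr (chromosome 7, positions 19637503 to 19655085, minus strand) was at 0.690, 0.367, 0.417 and 0.355 CPM in tumor-like nuclei. It was at 27.7, 26.5, 19.7 and 22.2 CPM in macrophage-like nuclei, from 5, 10, 7 and 5 transcripts. Endothelial-like nuclei had the highest mean, 52.1 ± 14.9 CPM (SD, n = 4), followed by alveolar type 2-like nuclei at 41.4 ± 18.2 CPM, which overlapped them. Macrophage-like nuclei exceeded tumor-like nuclei by 5.56 ± 0.62 on the log2 scale (adjusted p = 5.69e-18, edgeR). The lymphocyte-like excess of 4.16 ± 1.24 (adjusted p = 0.00422, edgeR) rested on 4 transcripts and was lost without RP1 (adjusted p = 0.114, edgeR) or RPC2 (adjusted p = 0.056, edgeR).

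Nectin2 (chromosome 7, positions 19450569 to 19484408, minus strand) was called lower in both immune classes than in tumor-like nuclei. In tumor-like nuclei it was at 48.6, 53.1, 51.9 and 45.2 CPM, the narrowest spread of the 10 genes relative to the mean. In macrophage-like nuclei it was at 22.1, 18.6, 11.3 and 17.8 CPM, from 4, 7, 4 and 4 transcripts. The log2 difference was -1.74 ± 0.34 (adjusted p = 1.16e-06, edgeR) for macrophage-like and -2.50 ± 0.61 (adjusted p = 0.000338, edgeR) for lymphocyte-like against tumor-like nuclei, the latter from 4 lymphocyte-like transcripts. The macrophage-like level was 21.7 to 45.6% of the tumor-like level, beside 7.43 to 15% for the neuroendocrine markers. The lymphocyte-like level was 0 to 36.4% of it, beside 14.9 to 26.1% for these markers. Alveolar type 1-like, club-like and alveolar type 2-like nuclei were at 116 ± 21.9 CPM, 109 ± 47.8 CPM and 97.1 ± 17.1 CPM (SD, n = 4), and endothelial-like nuclei at 84.8 ± 21.5 CPM. Every animal in each of these 4 classes lay above the tumor-like range. Tumor-like clusters ranged from 35.3 to 63.7 CPM.

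Cd80 and Cd86, the costimulatory ligands of antigen-presenting cells, were higher in both immune classes than in tumor-like nuclei. Cd80 (chromosome 16, positions 38275923 to 38316697, plus strand) was at 66.4, 58.3, 101 and 57.8 CPM in macrophage-like nuclei. RPC1 had the highest level, but its exact 95% Poisson interval, 71.0 to 140.3 CPM, overlapped those of the other animals. Thinned to 1000 transcripts, 3.03, 5.67, 8.70 and 8.54% of macrophage-like nuclei held a Cd80 transcript, and thinned to 500 transcripts 1.22, 4.07, 3.16 and 2.13% did, with RP2 then highest. Without thinning the shares were 11, 9.83, 27.4 and 10.6%. In tumor-like nuclei Cd80 was at 1.71, 1.76, 2.71 and 3.46 CPM, both RPC animals above both RP animals. Macrophage-like nuclei exceeded tumor-like nuclei by 4.74 ± 0.39 on the log2 scale (adjusted p = 5.79e-33, edgeR), and lymphocyte-like nuclei exceeded tumor-like nuclei by 3.51 ± 0.73 (adjusted p = 1.29e-05, edgeR). The lymphocyte-like excess rested on 5, 2, 3 and 2 lymphocyte-like transcripts. Cd80 overlaps 6790 bases of Timmdc1 on the other strand, which was at 21.6 to 29.0 CPM in tumor-like nuclei.

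Cd86 (chromosome 16, positions 36424044 to 36486443, minus strand) was at 205, 138, 149 and 276 CPM in macrophage-like nuclei. The other macrophage or monocyte-like nuclei, at 202 to 397 CPM, lay above the alveolar macrophage-like nuclei, at 76.4 to 175 CPM, without overlap. B cell-like nuclei were at 233 ± 87.9 CPM (SD, n = 4). In tumor-like nuclei Cd86 was at 1.20, 1.61, 2.03 and 2.13 CPM, again with both RPC animals higher, and at 0.585 to 1.36% of the macrophage-like level. On the log2 scale macrophage-like nuclei exceeded tumor-like nuclei by 6.55 ± 0.26 (adjusted p = 1.05e-139, edgeR) and lymphocyte-like nuclei did so by 6.04 ± 0.48 (adjusted p = 3.26e-34, edgeR). The difference between both immune classes, 0.42 ± 0.27, did not pass (adjusted p = 0.233, edgeR). Neither Cd80 nor Cd86 was counted among 490350 transcripts of endothelial-like nuclei, which allows up to 6.12 CPM.

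Cd200, the ligand of the second inhibitory pair (chromosome 16, positions 45202470 to 45229594, minus strand), was highest outside the tumor-like and immune classes. Endothelial-like nuclei held it at 287, 378, 383 and 222 CPM. Club-like nuclei followed at 209 ± 19.7 CPM and alveolar type 2-like nuclei at 139 ± 18.8 CPM (SD, n = 4), without overlap between them. Tumor-like nuclei were at 51.7, 44.8, 34.8 and 49.3 CPM, below every animal of these 3 classes. Macrophage-like nuclei, at 44.3, 90.2, 56.3 and 26.7 CPM, differed from tumor-like nuclei by 0.18 ± 0.26 on the log2 scale, which did not pass (adjusted p = 0.62, edgeR) and turned to -0.24 without RP2. Within the class, alveolar macrophage-like nuclei were at 67.3 to 121 CPM and the other macrophage or monocyte-like nuclei at 0 to 31.1 CPM, without overlap. Tumor-like clusters ranged from 27.8 to 79.7 CPM, the highest being led by Pdzrn3, Eya1, Negr1 and Cped1.

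Cd200r1, which encodes the inhibitory CD200 receptor (chromosome 16, positions 44586096 to 44615343, plus strand), was at 155, 180.3, 191 and 93.3 CPM in macrophage-like nuclei. Alveolar macrophage-like nuclei were at 200.3 ± 40.3 CPM and the other macrophage or monocyte-like nuclei at 104 ± 35.3 CPM (SD, n = 4), again without overlap. Alveolar macrophage-like nuclei thus held more of both the receptor and its ligand. T or NK cell-like nuclei held 0 to 158 CPM from 12 transcripts in all. Tumor-like nuclei were at 0.581, 0.477, 0.189 and 0.443 CPM, RPC below RP. The macrophage-like excess was 8.39 ± 0.31 on the log2 scale over tumor-like nuclei (adjusted p = 1.7e-155, edgeR) and 1.86 ± 0.40 over lymphocyte-like nuclei (adjusted p = 0.00017, edgeR). No Cd200r1 transcript was counted among 1285546 transcripts of club-like nuclei, which allows up to 2.33 CPM. The related genes Cd200r2, Cd200r3 and Cd200r4 were at means of 5.59, 2.75 and 72.4 CPM in macrophage-like nuclei, and shared reads could be split among them.

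Set beside all genes tested, 8 of the 10 were called higher and 1 lower in macrophage-like than in tumor-like nuclei, where 16.5% of 17993 genes were called higher and 25.1% lower. Their median log2 difference was 5.15, against -0.37 over all genes. In tumor-like nuclei Pdcd1lg2, Pvr and Cd200r1 reached at most 0.310, 0.690 and 0.581 CPM. They passed the filter on low counts through the macrophage-like class, where they were higher. A call of them could hardly be other than higher, so the 8 of 10 and the median partly follow from the filter. In lymphocyte-like against tumor-like nuclei 7 were called higher and 1 lower, where 8.45% of 17334 genes were called higher and 17.9% lower. Pdcd1lg2, Pvr and Cd200r1 were among the 7 and passed the filter through the lymphocyte-like class, so this count partly follows from the filter too. Pdcd1lg2 rested on 2, 1, 1 and 1 lymphocyte-like transcripts. The medians there were 2.59 and -0.68. In macrophage-like against lymphocyte-like nuclei 5 of the 10 passed the filter on low counts, and Sirpa, Cd274 and Cd200r1 were called higher, where 23.2% of 4739 genes were called higher and 17.1% lower. In both comparisons with tumor-like nuclei edgeR estimated 1 common spread for all genes. The SE and p of a single gene there do not reflect its own spread between animals, which can be wider. For Cd274 the macrophage-like level was 819 to 4296% of the tumor-like level of the same animal.

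The genotype comparison asked whether loss of Casp8 went with a change in these signals. In tumor-like nuclei 0 of the 10 genes and 0% of 20060 genes were called between RPC and RP by edgeR, 3069 passed 0.05 before adjustment (unadjusted p), and the DESeq2 alternative called 663, with 0 of the 10 among them. On the log2 scale, RPC minus RP was -0.02 ± 0.20 for Cd47, -0.13 ± 0.15 for Nectin2, -0.25 ± 0.23 for Cd200 and -0.13 ± 0.35 for Cd274 (SE, n = 2 per genotype). Cd80 had the smallest p (0.77 ± 0.32, adjusted p = 0.337, edgeR). RPC and RP animals did not overlap for Cd80 and Cd86, higher in RPC, and for Cd200r1, lower, that is for 3 of the 10, where 50.8% of all genes tested did not overlap. With 2 animals against 2, an exact permutation test cannot give a p below 0.333.

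In macrophage-like nuclei 7 of the 10 genes passed the filter, 0 were called, and 0.0896% of 5578 genes were. Cd274 had the smallest p of these, with a log2 fold change of 0.94 ± 0.38 (adjusted p = 0.466, edgeR). RPC and RP animals did not overlap for Cd274, 1 of the 7, where 43.1% of genes did not overlap. The value rested on RPC1, as it was 0.15 without RPC1. Without RPC2 it was 1.41 and passed (adjusted p = 0.02, edgeR), but RPC1 was then the lone RPC animal, assumed to vary like the 2 RP animals, so that pass compares 1 animal with the RP group and not the genotypes. Cd200 followed at -0.86 ± 0.49 (adjusted p = 0.6, edgeR). Within alveolar macrophage-like nuclei, which held most of the macrophage-like Cd200 transcripts, it was at 97.2, 121, 78.5 and 67.3 CPM, from 5, 30, 17 and 6 transcripts. The genotype effect on Cd274 differed between macrophage-like and tumor-like nuclei by 0.98 ± 0.38 (adjusted p = 0.678, edgeR), which did not pass, where 0.267% of genes did.

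In lymphocyte-like nuclei Cd47 and Cd86 passed the filter, at 0.37 ± 0.34 (adjusted p = 0.861, edgeR) and -0.29 ± 0.46 (adjusted p = 0.935, edgeR). There 0% of 1831 genes were called by edgeR, 123 passed 0.05 before adjustment (unadjusted p), and the DESeq2 alternative called 3. Cd47 was higher in both RPC than in both RP animals, where 39.9% of genes did not overlap.

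**Figure D4:**
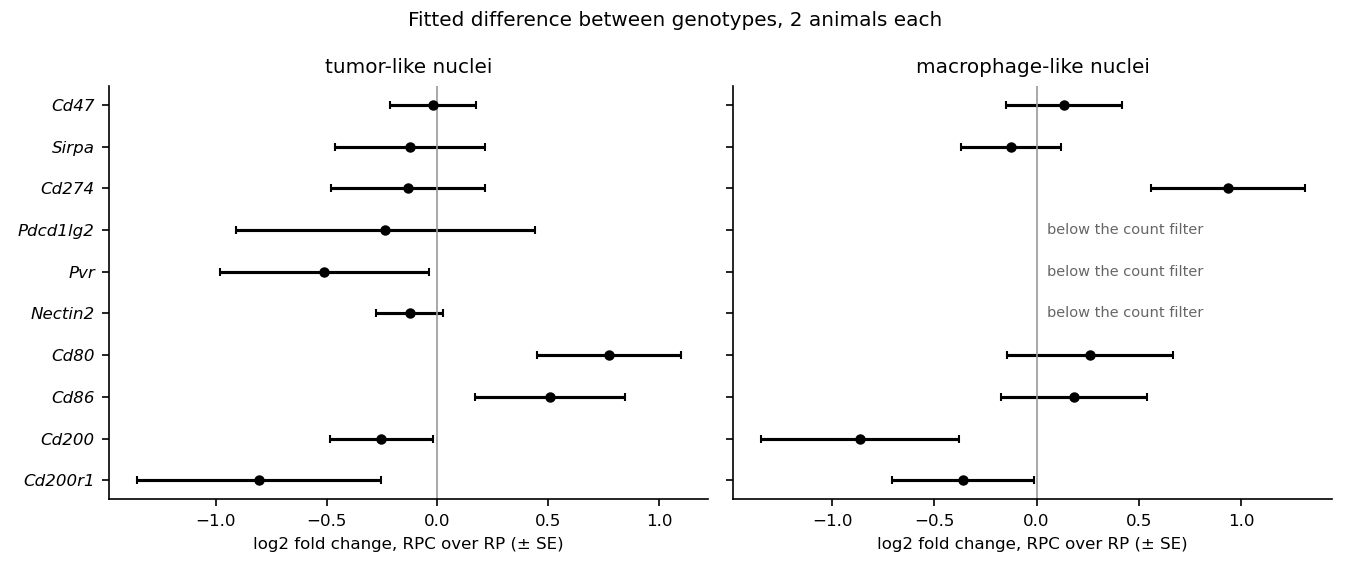
Fitted log2 fold change of RPC over RP (x axes) with its standard error for each gene (y axis) in tumor-like nuclei on the left and macrophage-like nuclei on the right, 2 animals per genotype. In macrophage-like nuclei Cd274 lies at 0.94 ± 0.38 and Cd200 at -0.86 ± 0.49; neither passed adjustment over all genes tested.

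Receptors of these ligands were counted in lymphocyte-like nuclei. Of a list of 14 receptors and relatives, 7 could be tested there and 6 were higher than in tumor-like nuclei, where 8.45% of all genes were higher and 17.9% lower. They included Cd226, an activating receptor for CD155 (log2 difference 8.37; adjusted p = 3.91e-38, edgeR), and Pdcd1, which encodes PD-1 (7.65; adjusted p = 4.88e-13, edgeR), at means of 168 and 27.5 CPM. Both passed the filter on low counts through the lymphocyte-like class, where they were higher. The 6 of 7 thus partly follows from the filter. In macrophage-like nuclei 6 of 9 tested were called higher, relatives of Sirpa or Cd200r1, where 16.5% of all genes were. Cd200r2 and Cd200r3 among them rested on 8 and 3 macrophage-like transcripts, 7 of the former in RPC1, and passed the filter on low counts through the class where they were higher. Cd200r4, Sirpb1a and Sirpb1c, at no more than 0.363, 0.327 and 0.379 CPM in tumor-like nuclei, passed it in the same way. Sirpb1c exceeded tumor-like nuclei by 8.86 (adjusted p = 4.6e-177, edgeR).

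Other checkpoint genes split between the classes. Of 17 tested, 7 were higher and 3 lower in macrophage-like than in tumor-like nuclei (median log2 difference 0.35), where 16.5% of all genes were higher and 25.1% lower with a median of -0.37. These shares also stand beside the macrophage-like counts of the next lists. Havcr2 (TIM-3) rose by 7.51 (adjusted p = 4.72e-169, edgeR) and Vsir (VISTA) by 4.22 (adjusted p = 1.56e-83, edgeR). In lymphocyte-like nuclei 6 of 19 were higher and 5 lower, where 8.45% and 17.9% of all genes were. In tumor-like nuclei alone 18 passed the filter on low counts, so the 6 of 19 may partly follow from the filter. Btla, an inhibitory receptor of B and T cells, was higher by 9.17 (adjusted p = 2.06e-159, edgeR), and the adhesion molecule Cadm1 fell by 3.22 (adjusted p = 2.74e-39, edgeR).

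Of 19 receptors and bridging proteins for eat-me signals, 11 were higher and 2 lower in macrophage-like than in tumor-like nuclei (median 2.78). Mertk, a receptor kinase for bridged phosphatidylserine, was at a mean of 1936 CPM in macrophage-like and 3.88 CPM in tumor-like nuclei (log2 difference 8.76; adjusted p = 2.79e-287, edgeR). Elmo1, an adaptor of the engulfment machinery, was at 1164 and 972 CPM and did not pass (0.09; adjusted p = 0.719, edgeR). All 8 Fc receptor and signalling genes, which serve antibody-dependent phagocytosis, were higher in macrophage-like nuclei (median 7.05). In tumor-like nuclei alone, 18 of the 19 eat-me genes and 7 of the 8 Fc genes passed the filter on low counts. Both counts and medians may thus partly follow from the filter.

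Of 14 partners and processing genes of don't-eat-me signals, 8 were higher and 2 lower in macrophage-like nuclei (median 1.33). In tumor-like nuclei alone, 13 of the 14 passed the filter on low counts, so this count too may partly follow from the filter. Fyb, an adaptor protein of hematopoietic cells, rose by 7.89 (adjusted p = 1.62e-256, edgeR), and Pirb, a receptor for MHC class I, by 7.57 (adjusted p = 2.13e-172, edgeR). Of 14 regulators of PD-L1, 9 were higher and 1 lower in macrophage-like nuclei, and 9 higher and 1 lower in lymphocyte-like nuclei, where 8.45% and 17.9% of all genes were (medians 1.11 and 1.61). Ifngr2, a chain of the interferon-γ receptor, was higher by 3.52 in macrophage-like nuclei (adjusted p = 1.08e-39, edgeR). No gene of the 6 lists was called between RPC and RP animals in any of the 3 classes by edgeR, and the smallest adjusted p was 0.219, for Itgam in macrophage-like nuclei.

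**Figure D5:**
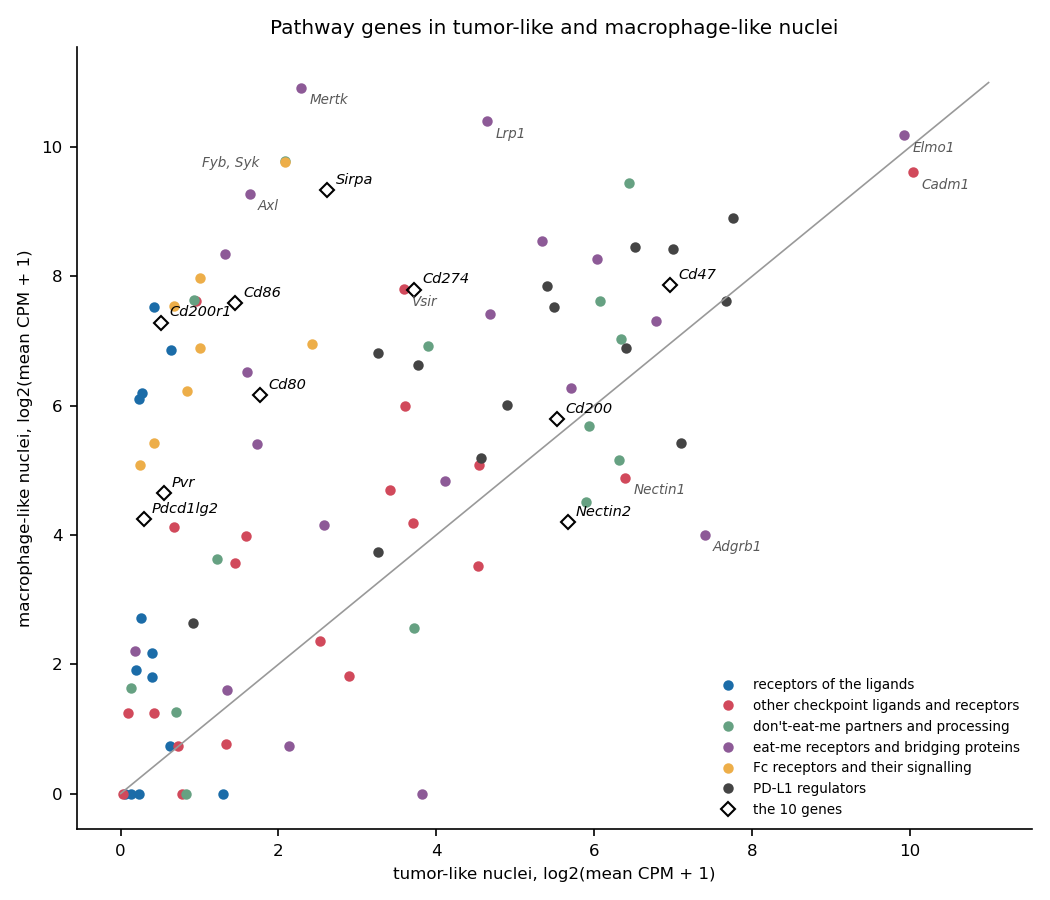
Mean level over 4 animals, as log2(CPM + 1), of the genes of 6 lists (colored circles) and of the 10 genes (open diamonds) in tumor-like (x axis) and macrophage-like nuclei (y axis); the line marks equal levels. Mertk and Sirpa lie far above the line, Elmo1 and Cd200 near it, and Nectin2 below it.

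Genes whose levels ran most like those of the 10 over 34 sums of class and animal were taken among 10313 genes, as a description. Cd47 ran with Stambpl1, Herc4 and Klhl6 (Pearson r 0.84 to 0.85). Sirpa ran with Ms4a6d, Tnfaip2 and Colec12 (Pearson r 0.93 for each). Cd274 ran with Ctss, Naip6 and Snx20 (Pearson r 0.86 to 0.91). Nectin2 ran with Parva, Adgrg1 and Dhx32 (Pearson r 0.89 to 0.90). Cd86 ran with Nckap1l, Myo1g and Sla (Pearson r 0.95 to 0.97). Cd200 ran with Arhgap29, Synpo and Myo1d (Pearson r 0.76 to 0.78). The sums share animals and libraries, and the remaining 4 genes had under 500 transcripts in named nuclei.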

How the data were processed

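Single-nucleus RNA-seq counts of 4 animals were used as deposited by the authors, as whole transcript counts per nucleus and gene from the Parse pipeline on GRCm39. The deposited totals ranged from 32299909 to 72446861 transcripts per animal. Following the study's methods, a nucleus was kept with at least 300 counts, at most 12000 genes and a mitochondrial share of at most 10%. Nuclei were clustered by Leiden (leidenalg 0.10.2, 2000 variable genes, 20 components, resolution 0.4) without 98 genes, namely the 10 genes and their pathway lists. Clusters were named from marker lists by a scoring rule set after the clusters had been seen. No doublet caller was run, and leaving out nuclei above 4 times the median depth was an alternative. No barcode was shared between animals.

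Counts were summed per animal and class and tested with edgeR 4.0.16 (quasi-likelihood, TMM, filterByExpr, two-sided, Benjamini-Hochberg adjusted p under 0.05 over all genes tested). Comparisons between classes held the animal as a block. DESeq2 1.42.0 was an alternative, beside other size factors, no filter, a minimum of 500 counts, resolution 0.8, a replicate block and leaving out each animal. Inclusion of mixed nuclei and leaving out the Grik2-led cluster were added after seeing the data. The scripts were tested on simulated data. P-values of genotype comparisons rest on the spread between 2 animals per genotype, combined by edgeR with the spread of other genes. Those between macrophage-like and lymphocyte-like nuclei rest in the same way on differences within the 4 animals. In both comparisons with tumor-like nuclei the p-values rest on 1 common spread estimated for all genes, and not on the spread of the gene itself. The named genes were the 10, up to 4 called genes with the smallest p and the 3 highest genes of each list, and the 3 genes most correlated with each of the 10. The 10 genes, lists and tests were chosen with earlier results of these data known. Promoter sequence and positions came from GRCm39.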

Additional observations from a re-analysis of the deposited data

Results flagged for a closer look

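Nectin2 in tumor-like nuclei was at 46.7 CPM in 1 of the 7 libraries, whereas the other libraries ranged from 49.4 to 51.0 CPM. The gap made up 0.626 of the range, above Dixon's critical value of 0.568. It was the 1 library set apart in 20 such comparisons, of which chance sets apart about 1 in 20. Each library pooled nuclei of all 4 animals.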

How the results depend on the processing

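Genotype values rested on 2 animals per group. Of 233 genotype log2 fold changes of the 10 genes under alternatives, 213 kept direction and side of the threshold, 19 changed sign and 1 newly passed; between classes the counts were 311 kept, 2 changed, 4 lost and 1 newly passed of 318. DESeq2 called 663, 8 and 3 genes between genotypes in tumor-like, macrophage-like and lymphocyte-like nuclei, and edgeR without a filter on low counts called 2, 56 and 11. In macrophage-like nuclei clustering resolution 0.8 gave 1 and inclusion of mixed nuclei (added after seeing the data) 1. Leaving out 1 animal gave 36 to 97 genes in macrophage-like and 0 to 31 in lymphocyte-like nuclei, and 1 of the 10 genes, Cd274, in macrophage-like nuclei without RPC2. These fits set 1 animal against 2, the lone animal being assumed to vary like the pair, so their calls are no evidence on genotype. With mixed nuclei 2965 genes were called between lymphocyte-like and tumor-like nuclei. The genotype value of Cd47 in tumor-like nuclei turned to 0.019 with DESeq2 and 0.044 without a filter. With mixed nuclei the genotype values of Cd80 and Cd86 in macrophage-like nuclei turned to -0.013 and -0.029, that of Cd86 in lymphocyte-like nuclei to 0.61, and Sirpa in lymphocyte-like against tumor-like nuclei passed at 2.28. Leaving out 1 animal turned other values, with ranges in tumor-like nuclei of Cd47 -0.24 to 0.19, Sirpa -0.42 to 0.13, Cd274 -0.46 to 0.30, Pdcd1lg2 -0.52 to 0.13 and Pvr -0.91 to 0.035, in macrophage-like nuclei of Cd47 -0.15 to 0.40, Cd80 -0.21 to 0.55, Cd86 -0.33 to 0.60 and Cd200r1 -0.97 to 0.015, and in lymphocyte-like nuclei of Cd86 -0.97 to 0.23. Between classes the ranges were Cd200 -0.24 to 0.43 in macrophage-like and Sirpa -0.70 to 1.24 in lymphocyte-like against tumor-like nuclei. The cause was not tested. Replicate numbers did not pair the animals (correlation of deviations -0.04 over 20060 genes), and a fit with the replicate number as a block called 15 genes in macrophage-like nuclei and changed no other count of calls between genotypes.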
